A study of Mus musculus with 56 samples.

Results

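The genes described here encode the subunits of the proteasome, the protease that degrades ubiquitin-tagged proteins, together with its assembly chaperones, activators and inhibitor. They were chosen by gene symbol: every symbol that starts with Psma, Psmb, Psmc, Psmd, Psme, Psmf or Psmg, except Psmb8 and Psmb9. That gave 47 genes of the 18182 that have a probe set (a set of short probes read as 1 value) annotated to a single symbol. Each was read from its brightest such probe set. Their RNA levels came from 1-colour oligonucleotide arrays of nucleus accumbens, which belongs to the ventral striatum (27 arrays, 27 strains), and of prefrontal cortex (29 arrays, 29 strains) of inbred male mice. The labels name no engineered allele and no treatment, give an age of 8 to 10 weeks and state that the mice were housed for a week before dissection. Each array held RNA of 3 pooled mice of 1 strain, so n is a number of strains. Both regions were taken from the same brains, so the 2 arrays of a strain share 1 pool of mice, and strain and pool cannot be told apart in any strain result. MRL/MpJ and NZO/HILtJ had cortex arrays only, which left 54 arrays of 27 strains for the paired comparison.

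The proteasome is a barrel, the 20S core particle, capped by a 19S regulatory particle. In the core, the alpha ring (Psma genes) forms the gate and the beta ring (Psmb genes) holds the proteolytic sites. In the cap, a ring of ATPases (Psmc genes) unfolds the substrate, and the non-ATPase subunits (most Psmd genes) recognise and remove ubiquitin. In neurons this protease turns over synaptic proteins, and its subunits are made together as parts of 1 complex. Of the 47 symbols, 45 are subunits, chaperones or regulators of it. The other 2, Psmc3ip and Psme3ip1, encode proteins named for binding Psmc3 and Psme3: Psmc3ip acts in meiotic recombination, and Psme3ip1 binds the nuclear activator Psme3.

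Values are log2 of the deposited intensities. A gene was tested if 13 or more of the 54 paired arrays read it at a log2 intensity over 5, and 42 of the 47 genes were tested. The 5 that were not tested are listed with their values further on. Region (nucleus accumbens minus prefrontal cortex) and strain were tested in 1 limma model over all 10684 features of the array, with Benjamini-Hochberg adjustment over all of them and a threshold of 0.05. By the values, the arrays of each region were normalized in a run of their own, so the run and the region cannot be told apart. The difference of the median feature was 0.12 log2 units as deposited, and 0.02 and 0.0063 after each array was centred on its median or all arrays were quantile-normalized together. Calls are therefore also given over these 3 scalings.

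The upstream sequences of 4 genes are shown as description. Psmb6 differed most between strains, Psmb5 shares with it the motif TGACNNNGC, and Psmd6 and Psmb10 had the largest region difference in each direction. A link between these sequences and the region or strain results was not tested. The sequences are the 250 bases before the annotated start, 5′ to 3′, from RefSeq on GRCm38.p6. Psmb6 lies at chr11:70525107-70525356, plus strand, Psmb5 at chr14:54617996-54618245, minus strand, Psmd6 at chr14:14120946-14121195, minus strand, and Psmb10 at chr8:105938393-105938642, minus strand. Capitals mark TGACNNNGC, the core of the antioxidant response element that the transcription factors Nfe2l1 and Nfe2l2 bind.
Psmb6: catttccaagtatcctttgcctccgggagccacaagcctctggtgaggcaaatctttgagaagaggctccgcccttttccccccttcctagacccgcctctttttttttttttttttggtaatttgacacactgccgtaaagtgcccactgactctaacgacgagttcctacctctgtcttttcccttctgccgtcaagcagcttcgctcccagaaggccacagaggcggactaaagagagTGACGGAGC
Psmb5: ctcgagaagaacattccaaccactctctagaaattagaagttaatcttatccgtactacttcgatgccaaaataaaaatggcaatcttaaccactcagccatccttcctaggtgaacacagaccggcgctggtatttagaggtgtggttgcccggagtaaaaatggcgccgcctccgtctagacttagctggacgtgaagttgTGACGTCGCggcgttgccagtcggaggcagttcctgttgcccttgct
Psmd6: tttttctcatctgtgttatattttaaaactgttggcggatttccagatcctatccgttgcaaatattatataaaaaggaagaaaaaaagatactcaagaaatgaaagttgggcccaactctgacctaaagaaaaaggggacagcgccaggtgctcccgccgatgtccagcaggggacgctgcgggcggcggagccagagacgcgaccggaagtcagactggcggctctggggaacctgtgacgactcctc
Psmb10: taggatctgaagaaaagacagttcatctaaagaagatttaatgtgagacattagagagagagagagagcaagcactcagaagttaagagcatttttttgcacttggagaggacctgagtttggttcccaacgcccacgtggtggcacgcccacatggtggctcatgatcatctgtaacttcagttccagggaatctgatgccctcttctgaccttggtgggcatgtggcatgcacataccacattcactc

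The motif was searched on both strands. It was found in 5 of 42 promoters of the proteasome genes (11.9%, of 39 genes with a promoter sequence, some with 2 starts), those of Psmb5, Psmb6, Psmc6, Psmd9 and Psmd12, and in 10.2% of all 32851 promoters. In Psmb6 its first base lay 9 bases before the start, in Psmd9 31 and in Psmb5 47, all on the gene's own strand. In Psmc6 and Psmd12 it lay 227 and 247 bases before the start on the other strand. CCAAT, the box bound by NF-Y, was found in 15 of 42 promoters (35.7%) against 33.8% of all. It was found in none of the 4 promoters shown. These shares are near those of all promoters. The sequences of Psma8, Psmb1, Psmb2, Psmb7, Psmc3, Psmd3, Psmd7 and Psmg2 were not analysed here.

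The labelled tissues were checked against marker genes. The summed intensity of 10 striatal projection neuron markers lay between 3607 and 28025 in accumbens and between 621 and 15704 in cortex, and was higher in accumbens in 27 of 27 strains. The lowest accumbens value was that of BALB/cByJ and the highest cortex value that of MA/MyJ, so these arrays stood apart from their groups. Results that rest on such arrays are also given without 5 strains: MA/MyJ, BALB/cByJ, CE/J, NON/LtJ and WSB/EiJ. No striatal or cortical marker values are given here for CE/J, NON/LtJ and WSB/EiJ. The accumbens array with the highest cortical marker sum, that of NOD/LtJ, was kept in those results. The sum of 11 cortical excitatory neuron markers lay between 191 and 585 in accumbens and between 2509 and 5641 in cortex, with Emx1 never above log2 5. Oligodendrocyte markers (11 genes) summed to 11547 to 33558 in accumbens and 7511 to 20260 in cortex and were higher in accumbens in 26 of 27 strains. Microglial markers (11 genes, Trem2 and Itgam never above log2 5) summed to 1191 to 2084 and 884 to 1490 and were higher in accumbens in all 27. The 3' end of actin exceeded its 5' end by 1.92 ± 0.18 log2 units in accumbens and 1.74 ± 0.27 in cortex (SD, n = 27 each). Astrocyte markers (10 genes) were higher in accumbens in 3 of 27 strains and endothelial and mural markers (9 genes, Pecam1 and Kdr never above log2 5) in 0 of 27. The part of the marker genes and of this RNA quality measure in the results was not tested beyond the values given with them.

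The region difference of the proteasome genes was small and went both ways. Of the 42 tested genes, 22 were higher in accumbens, 15 were lower and 5 were not called (limma, Benjamini-Hochberg). These are 52.4% and 35.7% of them, beside a background of 51.0% higher and 32.9% lower over all features, and the 37 genes called in either direction stand beside 83.9%. After centring, 12 were higher and 17 lower, beside 42.7% and 39.8% (29 in either direction, beside 82.6%). After quantile normalization, 17 were higher and 17 lower, beside 41.8% and 40.9% (34 in either direction, beside 82.7%). The median size of the difference was 0.19 log2 units, against 0.38 over all features. Over all 3 scalings 12 genes were higher, 15 lower and 3 not called, beside a background of 41.1% and 32.9%, and the call of the other 12 genes changed with the scaling. With oligodendrocyte markers as a covariate, 15 genes were higher and 7 lower, beside 38.9% and 24.3% of all features (63.2% in either direction). The 7, all among the 15 lower as deposited, were Psmb7, Psmb10, Psmc3, Psmc5, Psmd2, Psmd13 and Psme4. With the actin ratio as a covariate, 21 were higher and 11 lower, beside 49.0% and 31.6% (80.6% in either direction), and Psmb3, Psmb5, Psmd8, Psmd11 and Psmg3 lost their calls. A difference of at least 2-fold, which 15.4% of all features had, was seen in Psmb10 alone. In whole tissue, fewer cells of a type and less RNA per cell cannot be told apart.

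**Figure D1:**
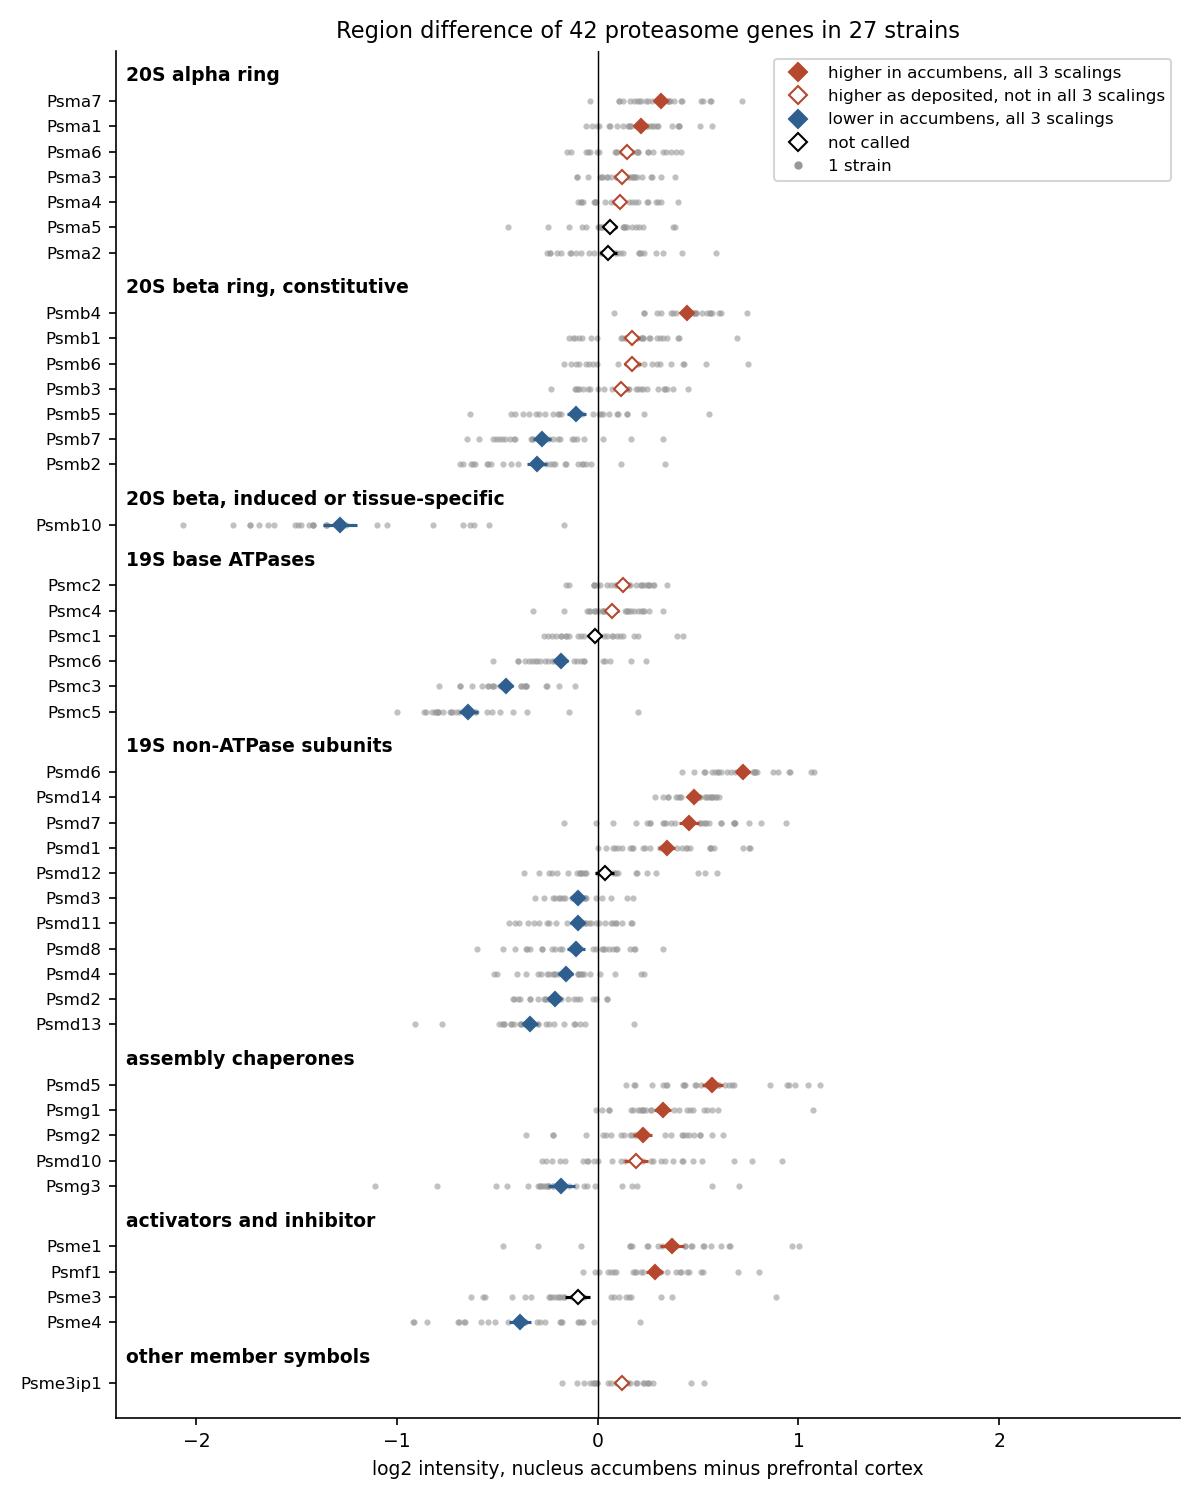
Region difference (log2 intensity, nucleus accumbens minus prefrontal cortex) of the 42 tested genes by role; grey points are the 27 strains, diamonds the mean with a bar of 1 SE, coloured by the call and filled where the call was the same under all 3 scalings. Psmb10 stands to the left at -1.28, and Psmd6 has the highest mean at 0.72.

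In the alpha ring of the core, 5 of 7 tested genes were higher in accumbens and none was lower, beside 51.0% and 32.9% of all features. Only Psma7 and Psma1 stayed higher over all 3 scalings, as 41.1% of all features did. Psma7 ranged from 9.43 over 9.69 to 10.06 in accumbens and from 9.03 over 9.40 to 9.74 in cortex, and was higher by 0.31 (SE 0.03; limma adjusted p = 1.38e-09) in 26 of 27 strains. Psma1 ranged from 9.16 over 9.46 to 9.81 in accumbens and from 8.90 over 9.23 to 9.56 in cortex, and was higher by 0.22 (SE 0.03; limma adjusted p = 8.08e-07) in 24. The array values of the regions overlapped in both genes. Psma3, Psma4 and Psma6 were called at 0.11 to 0.15 as deposited and were not called after centring. Psma2 (0.05) and Psma5 (0.06) were not called under any scaling, and their sign turned after centring. The ring as a group had a median difference of 0.12, the same to 2 decimals as that of all features, and of 0.02 after centring, as all features had.

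Among the 7 constitutive beta subunits, 4 were higher and 3 lower as deposited, beside 51.0% and 32.9% of all features. After centring 1 was higher and 3 were lower, beside 42.7% and 39.8%. Psmb4, a structural subunit of the ring, ranged from 10.62 over a median of 10.83 to 10.98 in accumbens and from 10.06 over 10.35 to 10.70 in cortex. It was higher in accumbens in all 27 strains, by 0.45 (SE 0.03; limma adjusted p = 1.35e-14). Its second probe set was higher by 0.09 (SE 0.04; limma adjusted p = 0.0253) as deposited, in 21 of 27 strains. That is below the 0.12 of the median feature, and this probe set is not given under the other scalings. Higher values in every strain were seen in 18.7% of all features and in a smaller share here, 4 of the 42 genes: Psmb4, Psmd5, Psmd6 and Psmd14. The subunits with the proteolytic sites were split. Psmb7, the trypsin-like subunit, ranged from 9.54 over 9.74 to 10.36 in accumbens and from 9.77 over 10.06 to 10.25 in cortex, and was lower by 0.28 (SE 0.04; limma adjusted p = 1.11e-06) in 24 of 27 strains. Its highest accumbens array was that of BALB/cByJ, and without the 5 strains the difference was -0.36. Psmb5, the chymotrypsin-like subunit, was lower by 0.11 (SE 0.05; limma adjusted p = 0.0367) in 17 of 27 strains, and was not called with oligodendrocyte markers (adjusted p = 0.599) or the actin ratio (adjusted p = 0.371) as a covariate. Psmb6, the caspase-like subunit, was higher by 0.17 (SE 0.04) as deposited and was not called after centring. Psmb2, a structural subunit, ranged from 5.94 over 6.39 to 6.98 in accumbens and from 5.75 over 6.75 to 7.35 in cortex, and was lower in 25 of 27 strains, by 0.30 (SE 0.05; limma adjusted p = 1.86e-06). Psmb1 and Psmb3, also structural, were higher by 0.17 and 0.12 and were not called after centring.

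Psmb10 had the largest difference of the 42 genes. It encodes the inducible subunit that takes the place of Psmb7 in the immunoproteasome, the form made under interferon. It ranged from 4.58 over 5.38 to 6.53 in accumbens and from 6.26 over 6.75 to 7.10 in cortex. It was lower in accumbens in all 27 strains, by 1.28 (SE 0.08; limma adjusted p = 7.27e-15), 2.44-fold, while the array values of the 2 regions overlapped. The overlap came through BALB/cByJ, whose accumbens array was at 6.53 and whose cortex array was at 6.70. Without the 5 strains named above the difference was -1.45, and with oligodendrocyte markers as a covariate it was -1.16. The lowest accumbens values, 4.58 in C57BL/6J, 4.73 in SM/J and 4.89 in SJL/J, were below the filter level of log2 5. The other inducible subunits, Psmb8 and Psmb9, lie outside the chosen symbols and were dim in both regions, at 3.39 and 2.38 in accumbens and 3.44 and 2.15 in cortex. Psmb10 was thus the only one of the 3 measured above the filter.

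Of the 6 ATPases of the cap, 2 were higher, 3 lower and 1 not called as deposited, beside 51.0% higher and 32.9% lower of all features. After centring none was higher and 4 were lower, beside 42.7% and 39.8%. With oligodendrocyte markers as a covariate none was higher and 2 were lower, Psmc3 and Psmc5, beside 38.9% and 24.3%. In Psmc2, Psmc4 and Psmc6 other probe sets were called in the opposite direction. Psmc5 ranged from 9.31 over 9.64 to 10.32 in accumbens and from 10.12 over 10.34 to 10.54 in cortex. It was lower in 26 of 27 strains, by 0.65 (SE 0.05; limma adjusted p = 1.5e-13), and the exception was BALB/cByJ, whose accumbens array at 10.32 was the highest and whose cortex array at 10.12 the lowest. Without the 5 strains the difference was -0.73. Psmc3 ranged from 8.83 over 9.06 to 9.28 in accumbens and from 9.28 over 9.50 to 9.80 in cortex, with no overlap between the regions. It was lower in all 27 strains by 0.46 (SE 0.03; limma adjusted p = 5.47e-14). No overlap was seen in 11.4% of all features and in 3 of the 42 genes: Psmc3, Psmd6 and Psmd14. Lower values in all 27 strains were seen in 11.9% of all features and in Psmb10 and Psmc3 here. Psmc6 was lower by 0.18 (SE 0.04), Psmc1 was not called as deposited and lower after centring, and Psmc2 (0.12) and Psmc4 (0.07) were higher as deposited and not called after centring.

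**Figure D2:**
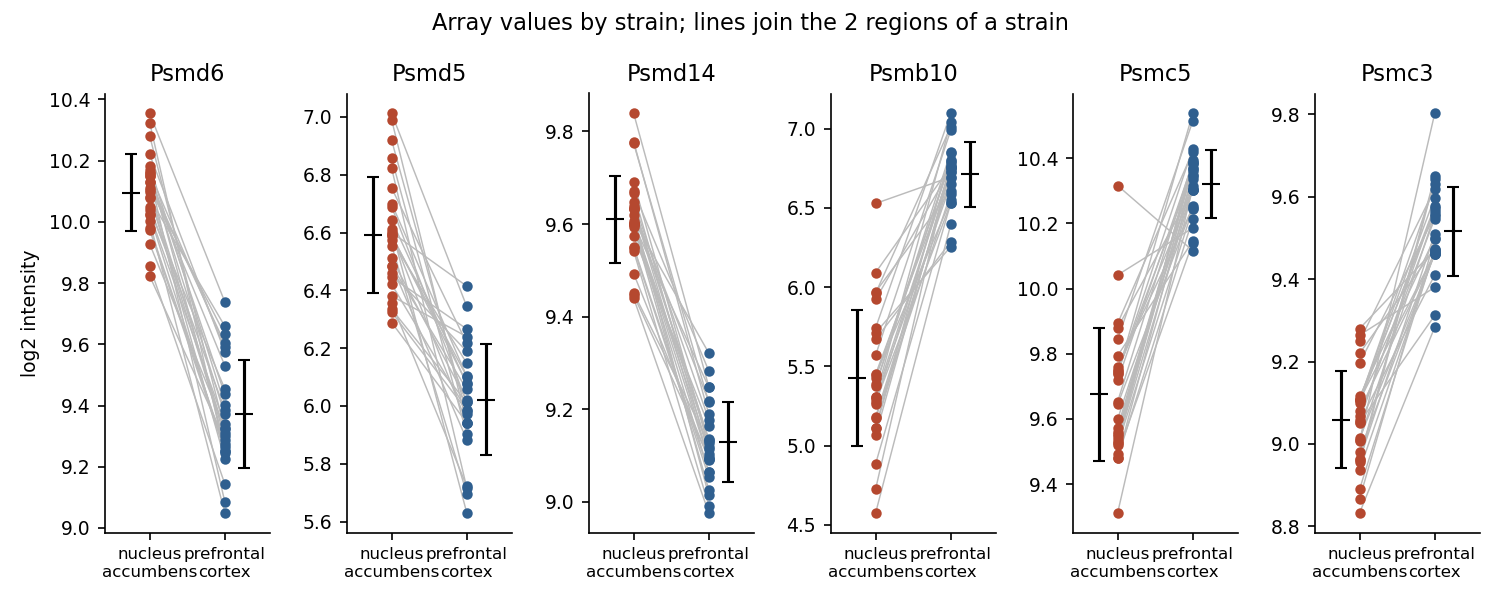
Log2 intensity of 6 genes in nucleus accumbens (left of each panel) and prefrontal cortex (right); each point is 1 array, grey lines join the regions of a strain, and the black bars give mean and SD over 27 strains. Psmd6, Psmd14 and Psmc3 have no overlap between regions; in Psmb10 and Psmc5 the highest accumbens point is BALB/cByJ.

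The 11 non-ATPase subunits each had the same call under all 3 scalings: 4 were higher in accumbens, 6 lower and 1 not called. Over all features, 41.1% were higher and 32.9% lower under all 3. Psmd6 ranged from 9.82 over 10.10 to 10.35 in accumbens and from 9.05 over 9.33 to 9.74 in cortex, and was higher by 0.72 (SE 0.03; limma adjusted p = 4.56e-18), 1.65-fold. Psmd14, the deubiquitinase that removes ubiquitin chains from substrates, ranged from 9.44 over 9.60 to 9.84 in accumbens and from 8.98 over 9.12 to 9.32 in cortex, and was higher by 0.48 (SE 0.02; limma adjusted p = 3.48e-18). Both were higher in every strain. Psmd7, the partner of Psmd14 in the lid, ranged from 8.11 over 8.38 to 8.52 in accumbens and from 7.44 over 7.83 to 8.46 in cortex, and was higher in 25 of 27 strains, by 0.45 (SE 0.05; limma adjusted p = 1.09e-09). Psmd1, a scaffold of the base, was higher by 0.34 (SE 0.04). The other large scaffold, Psmd2, was lower by 0.21 (SE 0.03). Psmd13, a lid subunit, ranged from 6.74 over 6.97 to 7.21 in accumbens and from 6.99 over 7.32 to 7.69 in cortex, and was lower in 26 of 27 strains, by 0.34 (SE 0.04; limma adjusted p = 1.44e-08). The ubiquitin receptor Psmd4 was lower by 0.16, and the lid subunits Psmd3, Psmd8 and Psmd11 by 0.10 to 0.11. None of these 4 was called with oligodendrocyte markers as a covariate (limma adjusted p from 0.0708 to 0.624). With the actin ratio Psmd8 was at -0.03 (limma adjusted p = 0.623) and Psmd11 at -0.08 (0.0916), neither called. The lid subunit Psmd12 (0.03, SE 0.05) was not called. Lid genes were thus found on both sides.

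Of the assembly chaperones, 4 of 5 tested genes were higher and 1 was lower, beside 51.0% and 32.9% of all features. After centring 3 were higher and 1 was lower, beside 42.7% and 39.8%. Psmd5, a chaperone of the ATPase ring, ranged from 6.29 over 6.59 to 7.01 in accumbens and from 5.63 over 6.01 to 6.41 in cortex. It was higher in all 27 strains, by 0.57 (SE 0.05; limma adjusted p = 1.83e-11), with overlap between the regions. The partners Psmg1 and Psmg2, which build the alpha ring as a pair, were both higher. Psmg1 ranged from 6.57 over 6.72 to 7.36 in accumbens and from 5.94 over 6.44 to 7.11 in cortex, a difference of 0.32 (SE 0.04; limma adjusted p = 8.08e-08). Psmg2 ranged from 6.81 over 7.30 to 7.85 in accumbens and from 6.67 over 7.11 to 7.65 in cortex, a difference of 0.22 (SE 0.05; limma adjusted p = 0.000119). The regions overlapped in both. Psmg3, which acts with Psmg4 in the same step, was lower by 0.18 (SE 0.07; limma adjusted p = 0.0134). Psmd10, also called gankyrin, was higher by 0.19 (SE 0.06) as deposited and not called after centring.

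The genes that open or block the core differed from each other. Psme1, a subunit of the activator that interferon induces, ranged from 7.37 over 7.84 to 8.56 in accumbens and from 7.23 over 7.50 to 7.86 in cortex, and was higher in 24 of 27 strains, by 0.37 (SE 0.06; limma adjusted p = 1.73e-06). Its difference was 0.59 with oligodendrocyte markers as a covariate. Psme4, the nuclear activator PA200, ranged from 7.24 over 7.79 to 8.27 in accumbens and from 7.67 over 8.19 to 8.56 in cortex, and was lower in 26 of 27 strains, by 0.39 (SE 0.06; limma adjusted p = 1.75e-07). Psme1 was higher and Psme4 lower under all 3 scalings. Psme3, the nuclear activator PA28gamma, ranged from 5.98 over 6.49 to 7.57 in accumbens and from 6.32 over 6.56 to 6.96 in cortex. It was not called as deposited (-0.10, SE 0.06) and was lower after centring and after quantile normalization. Psmf1, the inhibitor PI31, was higher by 0.28 (SE 0.04; limma adjusted p = 3.32e-07) on its brightest probe set, which a second probe set reversed. Psme3ip1 was higher by 0.12 (SE 0.03) as deposited only. Psme2 and Psme2b have only a probe set shared between symbols and were not named.

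The other probe sets of a gene did not always share its direction. Of the 42 tested genes, 17 had several probe sets above the filter. As deposited, in 10 of these they had 1 sign and in 7 both signs. In 8 all of them were called in 1 direction as deposited: Psma1, Psma6, Psma7, Psmb4, Psmd4, Psmd6, Psmd13 and Psmg2. In 6 genes probe sets were called in opposite directions. The largest split was in Psmf1, at 0.28 on the brightest probe set, 0.35 on the third and -0.55 on the second. Psmc6 was at -0.18 on the brightest and 0.21 and 0.22 on the others, and Psmc4 at 0.07 and -0.25. Psmb3 was at 0.12 and -0.13 and Psmc2 at 0.12 and -0.11. Psme4 was at -0.39, -0.19 and 0.13. Psme3 had 1 sign but different calls, at -0.10 (not called) and -0.52. For Psmb10, Psmc3, Psmc5, Psmd5, Psmd7 and Psmd14 only 1 probe set passed the filter, so their differences have no second reading. Psmd6 was higher on both of its probe sets, by 0.72 and 0.40.

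**Figure D3:**
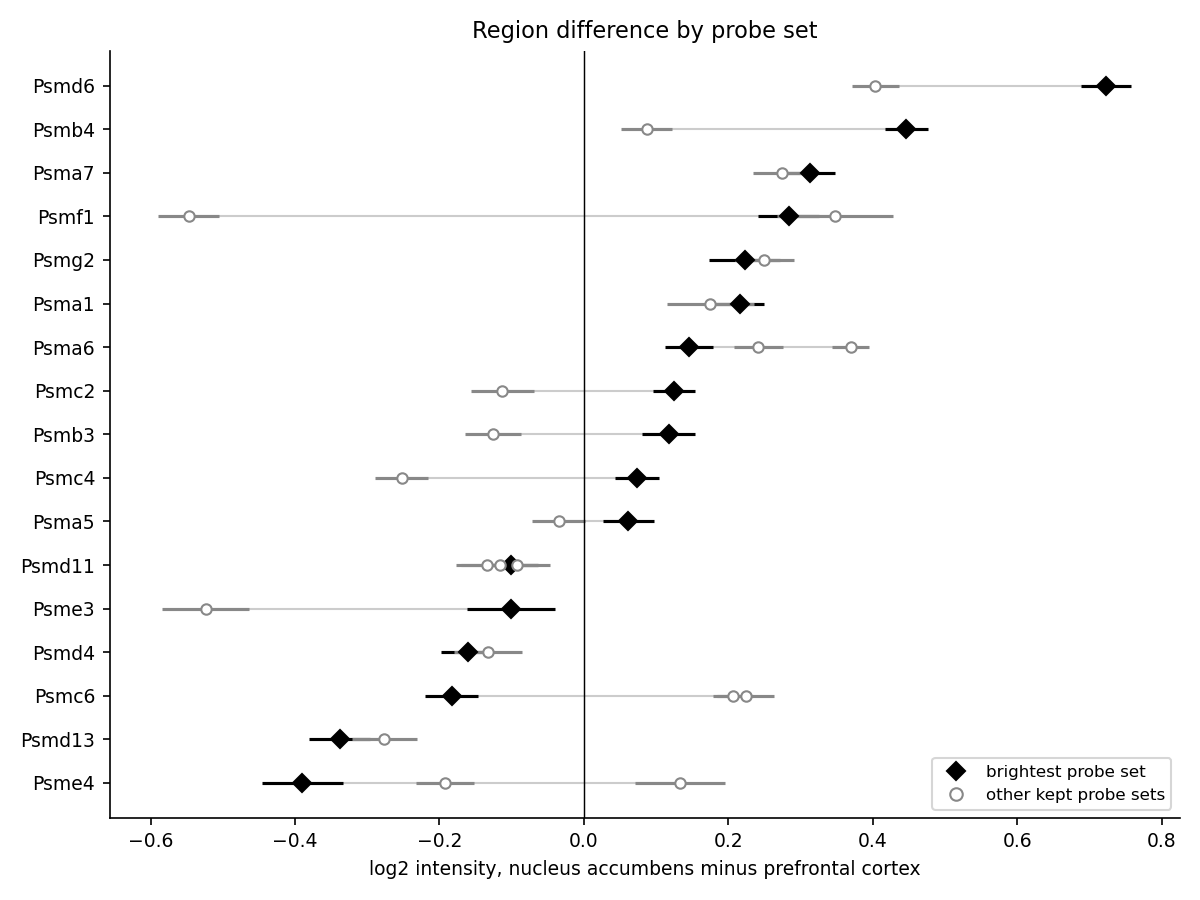
Region difference (log2 intensity, nucleus accumbens minus prefrontal cortex, with a bar of 1 SE) of each probe set above the filter in the 17 genes with several; black diamonds are the brightest probe sets. In Psmf1, Psmc6, Psmc4, Psmb3, Psmc2 and Psme4 called probe sets lie on both sides of 0.

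Of the 42 genes, 6 differed between strains (14.3%; limma moderated F, Benjamini-Hochberg), beside a background of 20.4% of all features. The SD of the strain means had a median of 0.12 log2 units in these genes and 0.18 over all features. No gene had a single strain beyond all others by 1 log2 unit or by 0.5 in both regions, which 0.711% and 1.59% of all features had. The count of genes called for strain was 5 after centring and 4 after quantile normalization, beside 2162 and 2105 of all 10684 features. The nearest to a single-strain gap was Psmf1 in WSB/EiJ, with a gap of 0.50. Outside the 6 genes, dimmer probe sets were called for strain in Psmc6 (limma adjusted p = 0.0234 and 0.00979), Psme4 (0.00397) and Psmd11 (0.0496). These p-values were adjusted over all kept probe sets. The other dimmer kept probe sets of Psme4 and Psmd11 were not called.

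Psmb6 had the largest strain difference (limma adjusted p = 2.44e-07). It ranged from 7.61 over 8.80 to 9.17 in accumbens and from 7.37 over 8.64 to 8.97 in cortex. A group of 3 strains was low in both regions: P/J at 7.64 in accumbens and 7.37 in cortex, SM/J at 7.61 and 7.71, and DBA/2J at 7.83 and 7.92. The next strain in order, C58/J, was at 8.77 in accumbens and 8.02 in cortex, and all other arrays lay at 8.37 or above. The mean of the 2 regions was 7.51, 7.66 and 7.88 in the low strains, 8.39 in C58/J and at most 8.96, in BALB/cByJ. The residual SD was 0.15 and the gap between DBA/2J and C58/J was 0.51. The strains from SWR/J upward followed each other in steps of at most 0.08, within that spread, so their order is not resolved. The strain values of the 2 regions had a correlation of 0.84 over 27 strains, whose pairs of arrays share the mice. Leaving out 1 strain at a time, the adjusted p stayed between 2.35e-08 and 4.32e-05. Only 1 probe set of Psmb6 passed the filter.

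Psmf1 ranged from 5.87 to 7.51 in accumbens and from 5.54 to 7.06 in cortex (limma adjusted p = 1.05e-05), and WSB/EiJ was the highest in both. The next accumbens value was 6.88, in BALB/cByJ, and the lowest strain mean was 5.87, in NZW/LacJ. Without WSB/EiJ the adjusted p was 0.00126. WSB/EiJ was also the highest strain on the other 2 probe sets, at 6.90 and 6.20 as a mean of the regions, although the strain test of the second missed the threshold (adjusted p = 0.073).

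Psmb2 (limma adjusted p = 0.000416) was low in SWR/J, at 6.08 in accumbens and 5.75 in cortex, and high in NOD/LtJ, at 6.95 and 7.35. The lowest accumbens value was that of SM/J, at 5.94, whose cortex value was 6.61. SWR/J had the lowest mean of the 2 regions at 5.91, and the other strains followed each other closely between 6.28 and 7.15. The correlation between regions was 0.66 over 27 strains.

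The other 3 were weaker. Psmc2 (limma adjusted p = 0.02) had its lowest mean in C58/J, at 10.58 in accumbens and 10.33 in cortex, and its highest in 129S1/SvImJ, at 10.95 and 10.97. It was not called after quantile normalization (adjusted p = 0.0551) or on its second probe set (0.166). Psmg2 (limma adjusted p = 0.0219) had its lowest mean in CE/J, at 7.13 and 6.71, and its highest in NOD/LtJ, at 7.69 and 7.65. The means of CE/J and A/J were both 6.92 with a residual SD of 0.18, so the lowest strain is not resolved. Without NOD/LtJ the adjusted p of Psmg2 was 0.0593. Its second probe set was also called for strain (limma adjusted p = 0.00287), with the lowest mean in P/J and the highest in SJL/J. Psmg1 (limma adjusted p = 0.0381) was high in CE/J, at 7.27 in accumbens and 7.11 in cortex, and in BALB/cByJ, at 7.36 and 6.80. Their means were 7.19 and 7.08, and the next was 6.78, in BTBR T+ tf/J. Without CE/J the adjusted p was 0.26. With all strains kept, Psmg1 was not called after centring (0.0629) or quantile normalization (0.0644), or with oligodendrocyte markers (0.0564) or the actin ratio (0.0507) as a covariate.

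**Figure D4:**
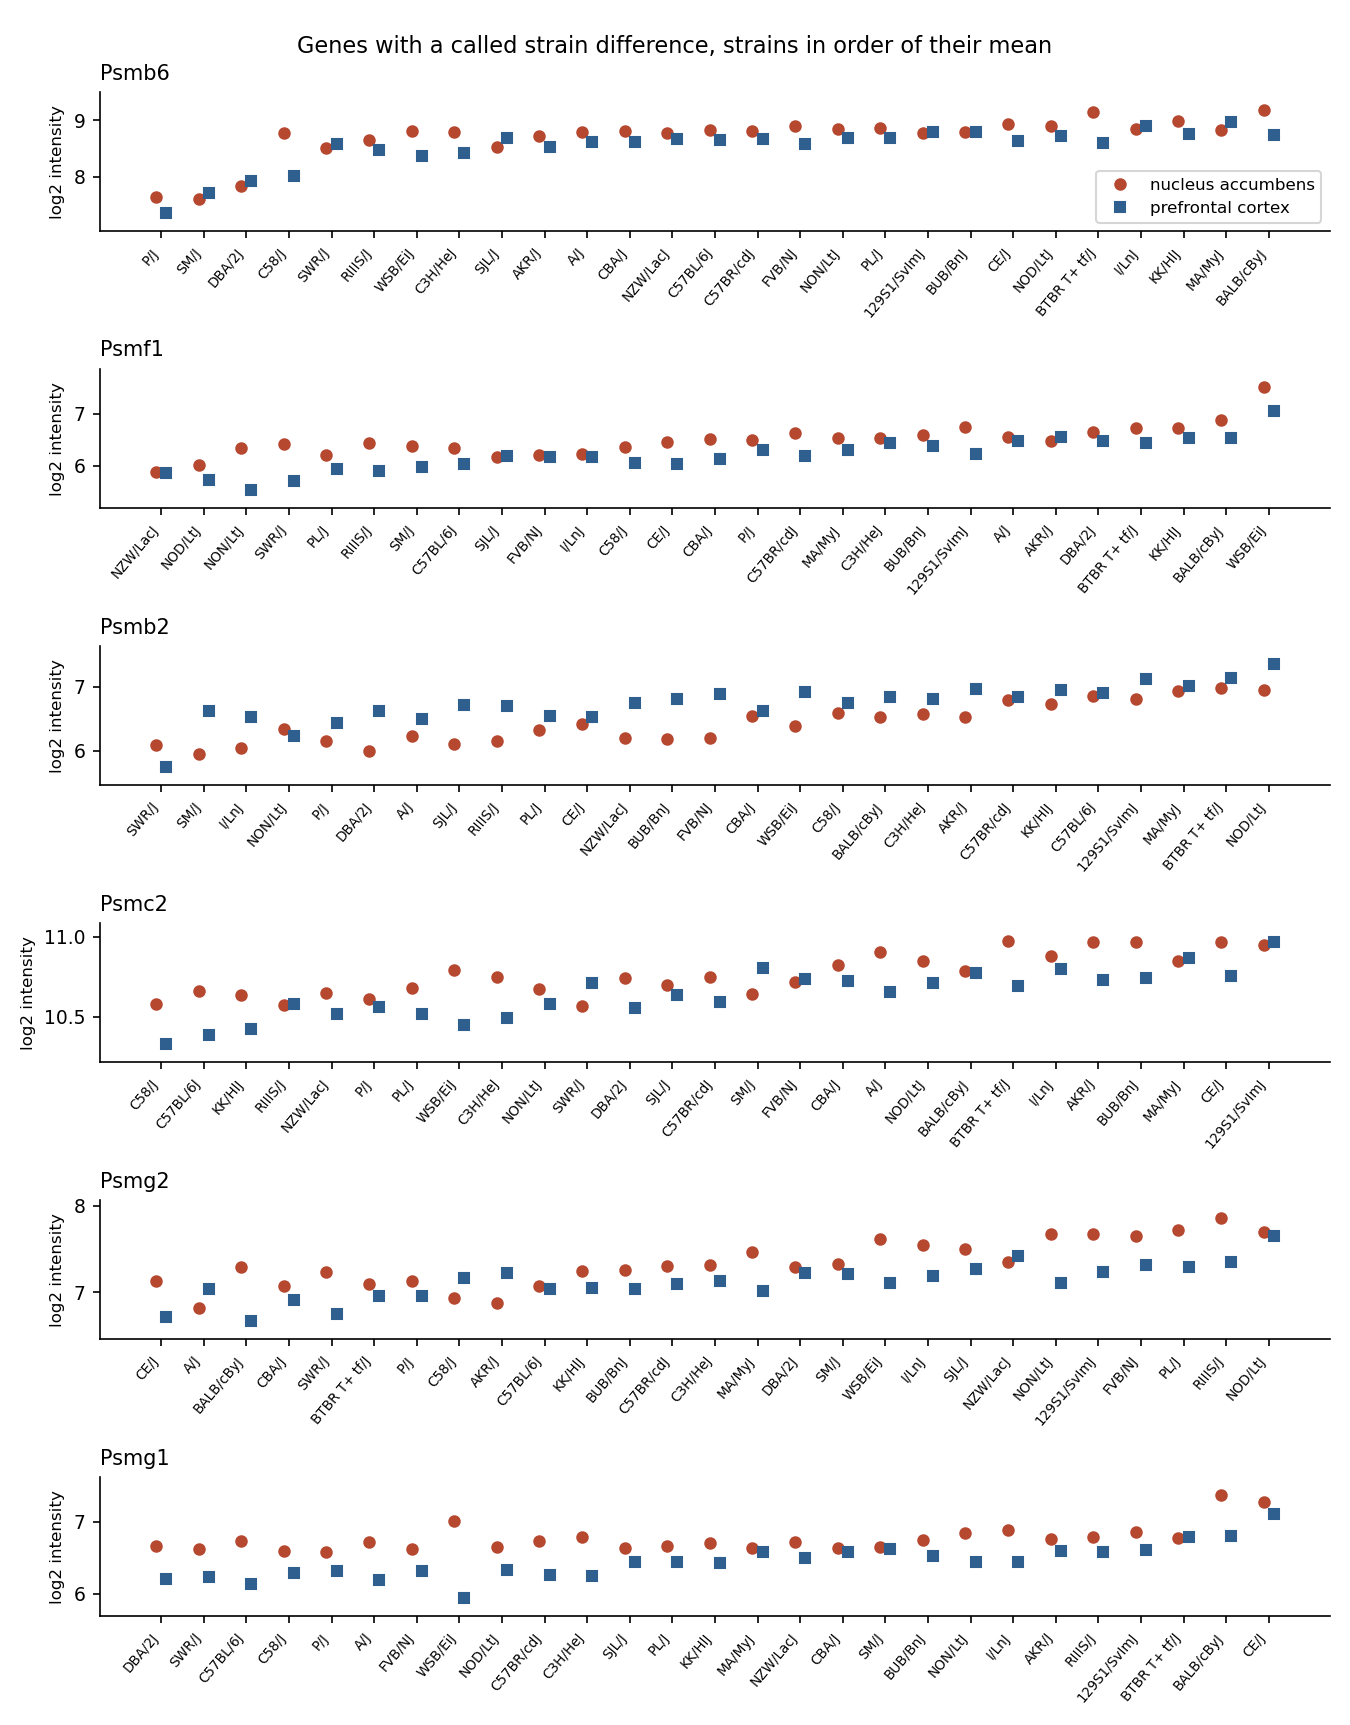
Log2 intensity in nucleus accumbens (circles) and prefrontal cortex (squares) of the 6 genes called for strain, with the 27 strains in order of their mean. P/J, SM/J and DBA/2J lie below the rest in Psmb6, and WSB/EiJ lies above the rest in Psmf1.

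The 5 untested genes were dim. Psma8, the testis form of an alpha subunit, and Psmb11, the thymus form of a beta subunit, were above log2 5 on 0 of 54 arrays, as was the chaperone Psmg4 (3.63 ± 0.35 in accumbens and 2.55 ± 0.32 in cortex, SD, n = 27 each). The chaperone Psmd9 was above it on 2 arrays and lay at 4.75 ± 0.15 and 4.70 ± 0.17. Psmc3ip was above it on 4 arrays, and these were the 2 regions of 2 strains: FVB/NJ at 6.62 in accumbens and 6.45 in cortex, and NOD/LtJ at 6.83 and 5.74. Its next highest accumbens value was 4.77, in NZW/LacJ, and its next highest cortex value 4.10, in RIIIS/J. The strain means of its second probe set had a correlation of 0.96 with these over 27 strains. No test was made of this gene.

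Within a region, the genes were also compared across strains for moving together, with arrays centred on their medians. The median of all pairwise correlations over 27 strains was 0.27 among the 42 genes in accumbens and 0.10 in cortex, beside 0.001 and 0.004 among all features. The alpha ring had the highest medians, 0.45 in accumbens and 0.31 in cortex. Values of 1 array share its RNA and its scan, so these are not independent, and the difference between regions was not tested. In accumbens, BALB/cByJ was the highest array for 16 of the 42 genes and SM/J the lowest for 13. Their medians lay 0.20 above and 0.17 below the means over strains. In cortex I/LnJ was the highest for 8 genes and WSB/EiJ the lowest for 7. BALB/cByJ is also the accumbens array lowest in striatal markers. The mean deviation of the 42 genes had a correlation of -0.63 with striatal markers over the 27 accumbens arrays, and of -0.34 without BALB/cByJ, against -0.17 over the 27 cortex arrays. Its correlation with the actin 3' minus 5' difference was -0.36 in accumbens and -0.62 in cortex. These describe arrays that share RNA and scan with the genes, and the part of either measure in the moving together was not tested. Without the strain BALB/cByJ the median pairwise correlation in accumbens was 0.24, and without BALB/cByJ and SM/J it was 0.20. These strains were chosen after seeing the data.

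**Figure D5:**
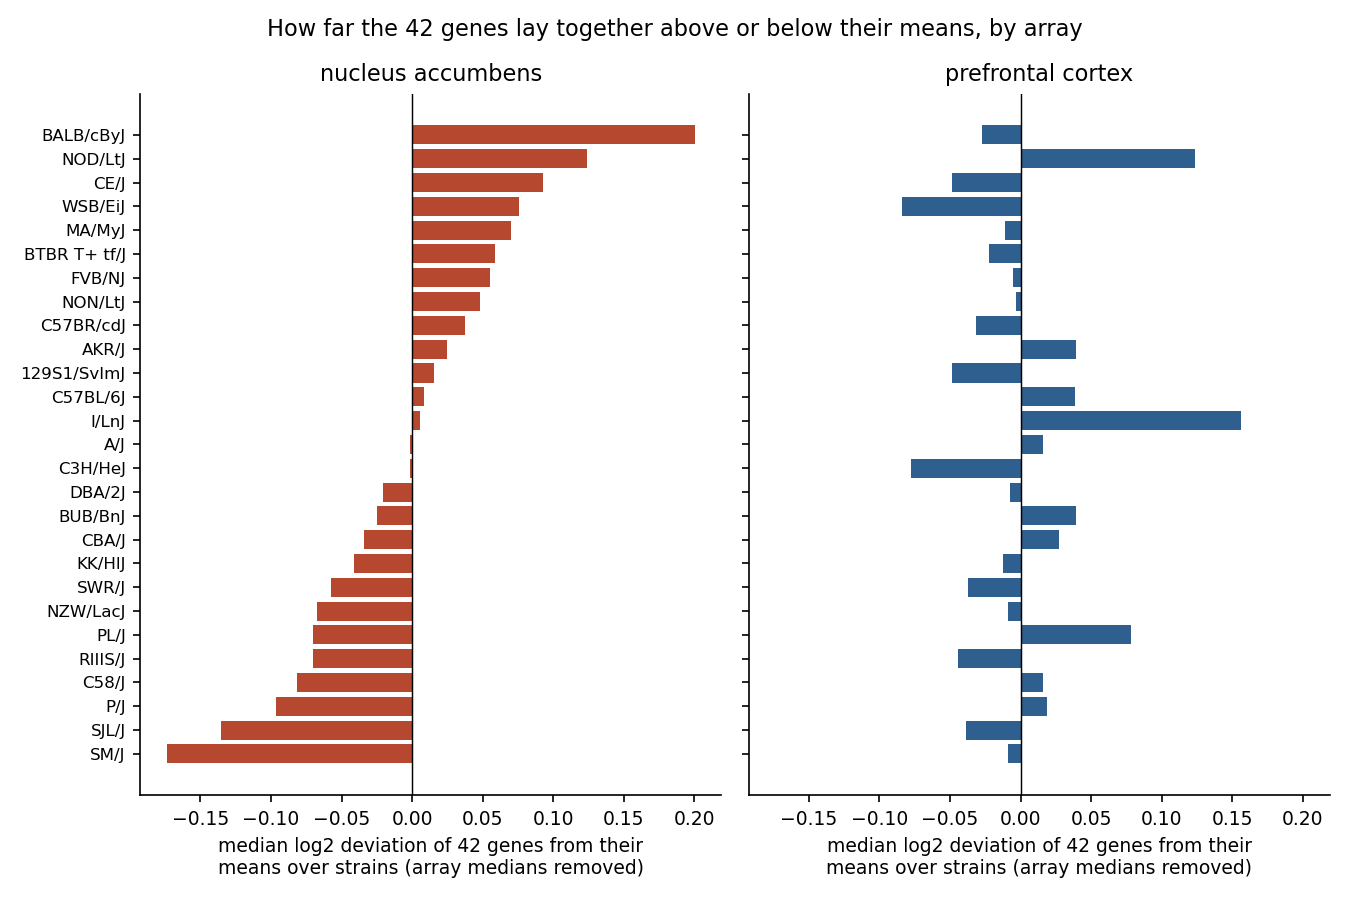
Median deviation of the 42 genes from their means over strains (log2, after removing each array's median) for each strain in nucleus accumbens (left) and prefrontal cortex (right), strains in the order of the left panel. BALB/cByJ at 0.20 and SM/J at -0.17 are the ends in accumbens; I/LnJ at 0.16 is the highest in cortex.

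Genes that work with the proteasome were read from lists chosen by function. Of 21 partner genes, 16 were tested, and 5 were higher and 8 lower in accumbens, beside 51.0% and 32.9% of all features. The median difference was -0.09, beside 0.12 over all features. After centring 5 were higher and 10 lower, beside 42.7% and 39.8%. After quantile normalization 4 were higher and 9 lower, beside 41.8% and 40.9%. Sem1, a small lid subunit whose symbol lies outside the chosen ones, ranged from 10.17 over 10.40 to 10.65 in accumbens and from 9.11 over 9.31 to 9.83 in cortex. It was higher in all 27 strains with no overlap, by 1.03 (SE 0.04; limma adjusted p = 2.25e-21), 2.05-fold. The ubiquitin ligase gene Ube3a was higher by 0.78, the Vcp cofactor gene Ufd1 by 0.67 and the shuttle factor gene Ubqln2 by 0.51, each in all 27 strains. Uchl5 and Usp14, deubiquitinase genes of the cap, were lower by 0.74 and 0.39, whereas the deubiquitinase gene Psmd14 was higher by 0.48. The shuttle factor gene Ubqln4 was lower by 0.65 and the other Vcp cofactor gene Nploc4 by 0.49. Between strains, Ube3a (limma adjusted p = 0.00201) and the shuttle factor gene Rad23b (0.00283) were called.

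Of 15 regulators of proteasome genes, 11 were tested, and 3 were higher and 4 lower, beside 51.0% and 32.9% of all features. The median difference was 0.01. After centring 3 were higher and 5 lower, beside 42.7% and 39.8%. After quantile normalization 3 were higher and 6 lower, beside 41.8% and 40.9%. Nfe2l1, which raises proteasome gene transcription when the protease is inhibited, ranged from 6.09 over 6.48 to 7.12 in accumbens and from 6.64 over 7.38 to 7.79 in cortex. It was lower in all 27 strains, by 0.84 (SE 0.06; limma adjusted p = 1.5e-14). Maf, a large Maf factor, was lower by 1.03 in all 27 strains, Stat3 by 0.48 and Mafg by 0.26. Nfyc, a subunit of NF-Y, was higher by 0.51 in all 27 strains, Nfe2l2 by 0.34 and Foxo3 by 0.33. Mafg differed between strains (limma adjusted p = 0.033). Of 6 ubiquitin genes and activating enzymes, only Uba6 was tested. It was higher in accumbens by 0.30 (limma adjusted p = 0.00283) as deposited, was not called after quantile normalization, and differed between strains (0.00471), from a mean of 5.96 in BTBR T+ tf/J to 7.54 in NON/LtJ.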

How the data were processed

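The starting point was the deposited intensity of each probe set, which the authors gave on a linear scale. The submitters' processing notes name GCRMA, a method that removes background, equalises distributions and combines probes; no version was found in the sources. Ranked within an array, the eleventh lowest value ran from 1.12 to 1.15 log2 units in accumbens and from 0.985 to 1.02 in cortex, so each region appears normalized in its own run. The table held 45015 probe sets, of which 64 were controls and were left out, 34880 had 1 gene symbol in the platform's table, 923 had several and 9148 had none.

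log2 was taken of the deposited values without a pseudocount, and the filter is given in the report. The brightest kept probe set stood for a gene. The lmFit and eBayes functions of limma 3.58.1 (R 4.3.3) were run on 54 arrays with a region coefficient and strain as a block, because the design text takes both regions from adjacent slices of the same brains. As a check of the strain labels, each cortex array was matched to the accumbens array it correlated with best. That was the array of its own strain for 24 of 27. Arrays of 1 strain share its genotype, so this match cannot show that they share mice. The moderated t tested region and the moderated F tested strain. A strain had 1 array per region, so the spread of strain by region served as error; precision is limited by how many arrays there were. The fits were tested on simulated data. Tables and figures used Python 3.11.15, numpy 2.4.6, pandas 2.3.3 and matplotlib 3.10.9. Named were all chosen genes by role, and with full values up to 6 called genes per direction, taken by size of the region difference, those called for strain, those with probe sets of both signs, Psmb10, the activators and the inhibitor, and of the other lists up to 4 by region and 3 by strain. The genes and lists were chosen with earlier results of these data known. Promoters came from RefSeq (GRCm38.p6).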

Additional observations from a re-analysis of the deposited data

How the results depend on the processing

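Strain was the block because its 2 regions share the mice. Without the replicate block 20 genes were higher and 15 lower in accumbens, against 22 and 15 with it. Leaving out 1 strain at a time gave 21 to 23 higher, 13 to 16 lower and 5 to 8 called for strain. After centring each array 12 genes were higher. With oligodendrocyte markers as a covariate 7 were lower. Over every kept probe set 25 of 65 were lower and 12 differed between strains, and at a threshold of 0.01 3 genes differed between strains. Without 9 strains, an alternative chosen after seeing the data, 21 genes were higher and 16 lower. For the fits without the block, over every kept probe set, at 0.01 and with strains left out, no share over all features is given. Those counts show only how the calls change with the processing.

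Signs turned for single genes in 25 comparisons. After quantile normalization Psma2 was at -0.0303, Psma5 at -0.0129 and Psmd12 at -0.0374; after centring they were at -0.0466, -0.0374 and -0.0654, and Psmc4 was at -0.0260. Without 5 strains Psma2 was at -0.0045 and Psmd12 at -0.0543, and without 9 at -0.0018 and -0.0325. With oligodendrocyte markers as a covariate Psmc1 was at 0.0045 and Psme3 at 0.0313, and with the actin ratio Psmc1 was at 0.0452. On the second brightest probe set Psma5 was at -0.0346, Psmb3 at -0.13, Psmc2 at -0.11, Psmc4 at -0.25, Psmc6 at 0.21 and Psmf1 at -0.55; without probe sets ending in _x_at, _s_at or _a_at the last 5 gave the same values, except Psmc6 at 0.22. Otherwise the cause was not tested. Of the other single-gene region comparisons, 429 kept direction and call, 43 lost the call and 7 gained it; of the leave-one-strain-out comparisons 1117 kept it, 14 lost it and 3 gained it. One pool per strain and region limits every strain value.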

Other observations

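MRL/MpJ and NZO/HILtJ had cortex arrays only and entered no comparison. Of the 42 genes, 41 lay within the cortex range of the other 27 strains in MRL/MpJ, the exception being Psme3ip1, and 42 of 42 did in NZO/HILtJ. In the genes called for strain, Psmb6 was at 8.42 in MRL/MpJ and 8.58 in NZO/HILtJ, above the 3 low strains. Psmf1 was at 6.20 and 5.93, and Psmb2 at 6.76 and 6.99. Psmb10, which was not called for strain over the 27 strains, was at 6.61 and 6.66. It was called for strain without the 5 strains (limma adjusted p = 0.0414) and without the 9 (0.0492). Psmc3ip was at 3.86 and 4.05, among the low strains.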
